A study of Homo sapiens with 6 samples.

Results

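The genes described here are 10 that build or regulate the contacts between epithelial cells. They are the claudins CLDN1, CLDN3, CLDN4 and CLDN7, the membrane proteins OCLN and MARVELD2, the adhesion molecule F11R, the scaffold TJP1, the cadherin CDH1 and the surface protein EPCAM. They were picked by name from 20176 protein-coding genes; the rule uses no measured value, but it was written with earlier results of these data known. ATAC-seq, which tags accessible chromatin by letting a transposase insert adapters into it, was done on MDA-MB-231 cells, a long-established line from a human breast cancer that lacks hormone receptors and HER2. Peak lists from 3 Parental libraries were compared with those from 3 libraries of SAP30-KO1, an MDA-MB-231 line in which CRISPR/Cas9 had disrupted SAP30, a subunit of the SIN3 histone deacetylase complex, to ask how accessibility differed without SAP30. No treatment is named for either group. The labels name no scrambled control and no other knockout guide here. The study selected its knockout cells with puromycin and expanded them. That selection cannot be told apart from the loss of SAP30 in this comparison. The study made its knockout lines by mixing several selected knockout cells, so SAP30-KO1 is 1 such mixture, and nothing in the labels says whether the 3 libraries of a group came from separate cultures. The p-values below therefore measure the spread between these libraries, which may be technical.

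Each library had its own list of 29762 to 40650 peak summits, a summit being the position of strongest signal in a peak. The score of a summit, the -log10 of its q value, was converted to its percentile rank in the list of the same library, from 0 to 100, and a rank of 0 was given where a library had no summit. A promoter was the sequence within 1 kb of any annotated start site of a gene, and its rank was that of its best summit. The region of a gene ran from 50 kb upstream of it to its end, which for these genes covered 51.3 kb at CLDN3 to 319.5 kb at TJP1. Summits extended by 250 bp to each side were merged over the 6 libraries into 56419 sites, of which 45 lay in the regions of the 10 genes. In bulk chromatin, a lower score from fewer cells with the site open and one from less open chromatin in every cell cannot be told apart.

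Tight junctions seal the space between neighboring epithelial cells near their apical border. Claudins form the paracellular strands, OCLN and MARVELD2 are membrane proteins of the MARVEL family that join these strands, F11R is an immunoglobulin-like adhesion molecule of the same border, and TJP1 (ZO-1) ties the strands to actin. CDH1 (E-cadherin) is the calcium-dependent adhesion molecule of the adherens junction beneath them, and EPCAM is an epithelial surface glycoprotein that stabilizes claudins. MDA-MB-231 cells have a mesenchymal shape, and in such cells many epithelial junction genes, CDH1 among them, are known to be silent.

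Sequences at or next to the sites on which the results turn are shown first, on GRCh37 and read 5′ to 3′. Capitals mark matches on either strand to AP-1 (TGANTCA), a repressor E-box (CAGGTG), TEAD (GGAATG), Grainyhead-like (AACCGGTT) and the GC box (GGGCGG). A match is a match of letters and not a measured binding site. The stretches at summits reach 100 bases to each side of the median summit of the 6 libraries, on the plus strand, and all of them lie in introns. The CLDN1 promoter stretch ends at the base before the start site and is cut short where an annotated first exon of CLDN16, which runs the other way, begins. They are shown because CLDN1 had the only promoter in this group open in every library, the sites upstream of CLDN1 and CDH1 had lower ranks in every SAP30-KO1 library, and the CLDN4 site was among the strongest of the 45.
CLDN1 promoter, chr3:190040236-190040329, minus strand: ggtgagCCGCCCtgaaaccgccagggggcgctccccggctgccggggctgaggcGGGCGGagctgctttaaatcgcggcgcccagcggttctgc
CLDN1 site 22.8 kb upstream, chr3:190062968-190063168: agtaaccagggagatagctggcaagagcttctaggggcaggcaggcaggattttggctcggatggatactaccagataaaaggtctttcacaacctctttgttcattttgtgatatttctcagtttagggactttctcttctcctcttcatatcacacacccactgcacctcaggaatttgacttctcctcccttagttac
CDH1 site 29.5 kb upstream, chr16:68741629-68741829: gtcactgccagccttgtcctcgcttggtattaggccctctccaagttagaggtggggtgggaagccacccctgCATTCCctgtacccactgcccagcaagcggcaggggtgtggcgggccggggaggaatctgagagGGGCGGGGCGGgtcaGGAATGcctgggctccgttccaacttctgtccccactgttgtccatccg
CLDN4 site 8.3 kb upstream, chr7:73236891-73237091: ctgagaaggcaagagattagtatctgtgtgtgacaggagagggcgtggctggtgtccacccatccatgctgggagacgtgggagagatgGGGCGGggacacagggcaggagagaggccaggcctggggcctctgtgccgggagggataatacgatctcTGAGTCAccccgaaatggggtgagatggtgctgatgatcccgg

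The CLDN1 promoter stretch held 2 GC boxes, but none of the CLDN1 promoter summits, which lay downstream of it in the first exon. The site upstream of CDH1 held 2 TEAD matches and 2 overlapping GC boxes, the CLDN4 site held 1 AP-1 match and 1 GC box, and the site upstream of CLDN1 held none of the 5 motifs. Over all genes, 59.1% of 19856 promoters had a GC box and 17.3% had an E-box in the 250 bases before the start. Among the 10 genes these were 9, all but OCLN, and 5, of which CLDN7 had 4 E-boxes, EPCAM and F11R 3 each, CDH1 2 and OCLN 1. Over all 40517 sites away from any promoter, 28.1% had an AP-1 match, 17.3% a TEAD match, 13.5% an E-box and 6.16% a GC box within 100 bases of the median summit. Of the 28 such sites at these genes, 8 had an AP-1 match, 8 a TEAD match, 4 an E-box and 4 a GC box. Grainyhead-like matches were rare throughout, at 0.0420% of those sites and 0.141% of promoters, with 0 at these genes.

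Of the 10 promoters, that of CLDN1 alone had a summit in all 6 libraries, 7 had one in 1 to 5 libraries, and those of CLDN3 and CDH1 had none. Over all protein-coding genes, 34.5% had a promoter summit in all 6 libraries and 62.3% in at least 1. A summit in at least 2 libraries of a group was found at 4 of the 10 promoters in Parental and at 4 in SAP30-KO1, against 48.4% and 50.4% of all protein-coding genes. The ranks of CLDN1 were lower in every SAP30-KO1 library than in every Parental library, and no other promoter of the group had ranks that separated the groups in either direction. That is 1 of the 8 promoters with a summit, beside a background of 4.57% of 12572 promoters lower in SAP30-KO1 without overlap and 6.01% higher, so 1 promoter in 8 is no result about the group as a whole. Of the 8, 6 had a lower mean rank in SAP30-KO1 and 2 a higher one, with a median difference of -12.1 points against 0.673 over all promoters with a summit. The means of all but CLDN1 include ranks of 0 for libraries without a summit, and some of these differences rest on 1 or 2 libraries. The exact permutation test over the 20 assignments of the libraries, two-sided, cannot give a p below 0.1 here, and after Benjamini-Hochberg adjustment over all 12572 promoters the 8 genes had adjusted p-values of 0.945 (CLDN1) or 1.

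**Figure D1:**
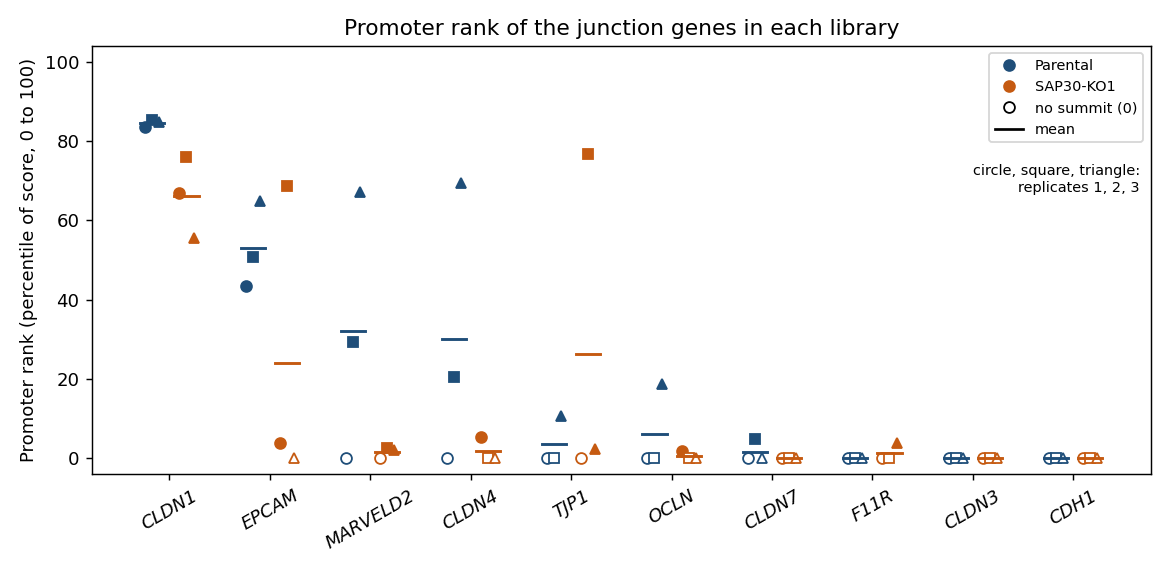
Promoter rank (percentile of the summit score within its library, 0 where a library had no summit) of the 10 junction genes in each of the 3 Parental and 3 SAP30-KO1 libraries. Points are libraries (open where no summit was called) and horizontal bars are group means. CLDN1 is the only gene with every point above 0, and the only one whose groups do not overlap, while CLDN3 and CDH1 stay at 0.

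CLDN1 (ENSG00000163347, chr3:190023496-190040235, minus strand) encodes a strand-forming claudin, and the study follows it as a gene that SAP30 activates. Its promoter rank was 83.6, 85.4 and 84.8 in Parental, and 66.9, 76.0 and 55.6 in SAP30-KO1. The Parental values lay within 2 points of each other, all above the highest SAP30-KO1 value, and the SAP30-KO1 values spread widely. The means were 84.6 ± 0.921 and 66.1 ± 10.2 (SD, n = 3 each), a difference of -18.5 points (two-sided exact permutation p = 0.1, the lowest value possible here). With limma on the 6966 promoters open in all libraries the standard error of this difference was 5.94 and the adjusted p was 0.587. The scores themselves were 10.7, 11.5 and 10.6 in Parental and 7.65, 10.3 and 6.66 in SAP30-KO1. The 6 summits fell within 118 bp of each other in the first exon, with the median summit 121 bp from the start. An annotated first exon of CLDN16, a claudin of the kidney, starts on the other strand within 1 kb, so the peak counts for both genes. With canonical start sites only, CLDN16 no longer had ranks apart, so the start that shares this peak is not its canonical one.

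CLDN3, CLDN4 and CLDN7 encode further claudins that are typical of simple epithelia. CLDN3 (chr7:73183327-73184600) had no promoter summit and no summit anywhere in its 51.3 kb region in any library. CLDN4 (chr7:73213872-73247020) had promoter ranks of 0, 20.6 and 69.3 in Parental and 5.40, 0 and 0 in SAP30-KO1, from summits at an alternative start 2.7 kb upstream of the canonical one. The Parental mean of 29.99 ± 35.6 against 1.80 ± 3.12 (SD, n = 3 each) thus rested on 2 libraries, the groups overlapped (two-sided exact permutation p = 0.4), and the canonical CLDN4 start had no summit within 1 kb. The difference of -28.2 points was -43.2 without Parental 1 and -8.51 without Parental 3. CLDN7 (chr17:7163222-7167302) had a promoter summit in 1 library, Parental 2, at a rank of 4.90, which is near the bottom of that list.

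OCLN and MARVELD2 encode the MARVEL proteins, and MARVELD2 (tricellulin) seals the corners where cells meet. MARVELD2 (chr5:68710892-68740157) had promoter ranks of 0, 29.4 and 67.1 in Parental and 0, 2.71 and 2.16 in SAP30-KO1. The SAP30-KO1 summits were thus among the weakest of their libraries, but Parental 1 had none, so the means of 32.2 ± 33.6 and 1.62 ± 1.43 (SD, n = 3 each) came from overlapping groups (two-sided exact permutation p = 0.4). The difference of -30.5 points was -46.6 without Parental 1 and -13.1 without Parental 3. OCLN (chr5:68788119-68853931) had a summit in Parental 3 at a rank of 18.8 and in SAP30-KO1 1 at a rank of 1.75. Its difference of -5.67 points turned to 0.585 without Parental 3.

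F11R (JAM-A, chr1:160965001-160991133) had a single promoter summit, in SAP30-KO1 3, at a rank of 3.91. TJP1 (chr15:29991571-30261118) had promoter ranks of 0, 0 and 10.8 in Parental and 0, 76.7 and 2.37 in SAP30-KO1. The high value came from SAP30-KO1 2 alone, so that the difference between 3.59 ± 6.22 and 26.4 ± 43.6 (SD, n = 3 each) was 22.8 points with this library (two-sided exact permutation p = 0.7) and -2.41 without it. SAP30-KO1 2 also had the longest list of summits. With equal list lengths the TJP1 difference was 22.7 points, and the cause of the high value was not tested.

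CDH1 (chr16:68771195-68869440) had no summit within 1 kb of any of its 10 annotated start sites in any library. EPCAM (chr2:47572297-47614740) was the next most accessible promoter after CLDN1, with ranks of 43.4, 50.7 and 64.9 in Parental and 3.92, 68.6 and 0 in SAP30-KO1. The Parental libraries were all intermediate, while SAP30-KO1 2 exceeded them and the other two SAP30-KO1 libraries were at or near 0. The means were 53.0 ± 10.9 and 24.2 ± 38.5 (SD, n = 3 each), a difference of -28.8 points (two-sided exact permutation p = 0.4). It was -51.0 without SAP30-KO1 2, -18.7 without SAP30-KO1 1, -16.8 without SAP30-KO1 3 and -17.6 among summits with a q value of 0.0001 or less. The highest of these ranks, 50.7, 64.9 and 68.6, came from an alternative start 24.1 kb upstream of the canonical EPCAM start, shared with the divergent transcript EPCAM-DT. The ranks there were 29.8, 50.7 and 64.9 in Parental and 0, 68.6 and 0 in SAP30-KO1. At the canonical start they were 43.4, 11.5 and 0 in Parental and 3.92, 0 and 0 in SAP30-KO1, a difference of -17.0 points. The mean there over the 6 libraries was 9.81.

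By mean rank over the 6 libraries the order was CLDN1 (75.4), EPCAM (38.6), MARVELD2 (16.9), CLDN4 (15.9), TJP1 (15.0), OCLN (3.42), CLDN7 (0.817) and F11R (0.652), with CLDN3 and CDH1 at 0. The ranges of every pair of neighbors in this order overlapped. CLDN1 stood at the 85.0th percentile of all protein-coding genes by this mean, and EPCAM at the 64.9th. The median over the 10 genes was 9.20, beside 12.8 over all protein-coding genes. A CpG-rich promoter was common to nearly all of them: within 500 bp of the canonical start the ratio of observed to expected CpG was 0.6 or more at 9 of the 10, from 0.616 at F11R to 0.967 at TJP1, and 0.446 at CLDN4. Over all genes, 46.9% of 13224 with a ratio of 0.6 or more had a promoter summit in all 6 libraries, against 11.3% of 6657 under it. Of the 9 CpG-rich junction genes, CLDN1 alone had one.

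The 45 sites in the regions of these genes comprised 11 at their own promoters and 34 distal ones, of which 24 were intronic, 6 were at promoters of neighboring genes, 3 were intergenic and 1 was exonic. A summit in all 6 libraries was found at 7 sites (15.6%, against 28.9% of all 56419 sites), in 2 to 5 libraries at 26, and in 1 library at 12 (26.7%, against 28.5%). Ranks were lower in every SAP30-KO1 library than in every Parental library at 3 sites, the CLDN1 promoter, a site 22.8 kb upstream of CLDN1 and a site 29.5 kb upstream of CDH1. The reverse was found at 0 sites. The 3 sites are 6.67% of 45, beside 4.26% of all sites lower without overlap and 5.86% higher, which is near the background for so few sites. All 3 were among the 7 sites seen in every library. That is 3 of 7, a larger share than the background there of 7.08% of 16314 lower, with 8.58% higher. With so few sites, and 2 of the 3 at CLDN1, neither share is a result about the genes as a group. The mean rank was lower in SAP30-KO1 at 26 of the 45 sites (57.8%, against 48.9% of all sites), 18 of them distal, and the median difference was -3.59 points against 0.280 over all sites. No site had summits in all 3 libraries of one group and none of the other, which was the case for 0.876% of all sites with Parental and 1.43% with SAP30-KO1 as the group with summits.

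**Figure D2:**
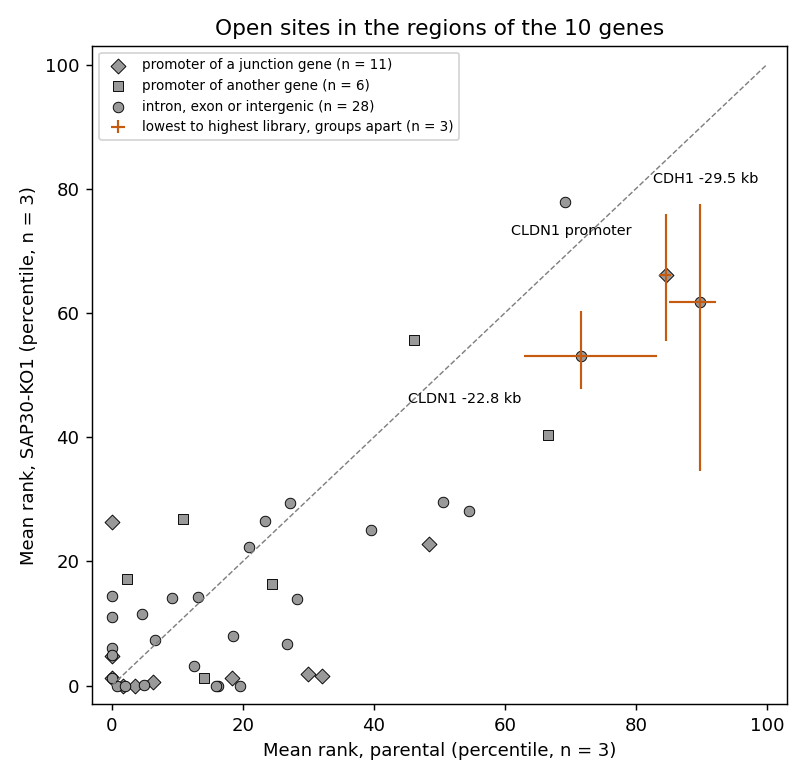
Mean percentile rank of the 45 sites in the regions of the junction genes in the 3 SAP30-KO1 libraries against that in the 3 Parental libraries. Each point is a site, its shape gives the site class, the dashed diagonal marks equal means, and the crosses run from the lowest to the highest library of each group at the 3 sites whose groups do not overlap. These 3 lie below the diagonal, to the right of most other sites.

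The CLDN1 region held 4 sites, and apart from the promoter all of them lay in introns of the neighboring gene CLDN16. At the site 22.8 kb upstream of the CLDN1 start (chr3:190062743-190063637) the ranks were 83.2, 68.7 and 63.0 in Parental and 47.7, 51.3 and 60.3 in SAP30-KO1. The groups did not overlap, but the lowest Parental library and the highest SAP30-KO1 library lay close together. The difference was -18.5 points (two-sided exact permutation p = 0.1, adjusted p = 0.988 over all sites), and limma gave a standard error of 7.01 and an adjusted p of 0.476. The summit of SAP30-KO1 1 lay 319 bp from the median summit, so that with summits extended by 100 bp it fell outside the site and the difference became -34.4 points. Among summits with a q value of 0.0001 or less the groups overlapped. The site 16.6 kb upstream had ranks of 7.97, 0 and 11.7 in Parental and 0, 22.1 and 0 in SAP30-KO1. The site 44 kb upstream had a summit in Parental 1 only, at a rank of 48.4. Among the 123 other sites within 5 Mb of the CLDN1 promoter that were seen in all libraries, the median difference was -0.370 points. Of these 123, 10 were lower without overlap, beside 7.08% of all 16314 sites seen in every library. On the whole arm 3q the median over 697 sites was 1.22 points.

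The CDH1 region held 6 sites, 5 of them in CDH1 introns and seen in 1 to 4 libraries, and the strongest, in all 6, 29.5 kb upstream in an intron of CDH3, the gene of P-cadherin (chr16:68741393-68742247). This site had the highest mean rank of the 45. Its ranks were 85.0, 92.3 and 92.0 in Parental and 34.6, 73.2 and 77.5 in SAP30-KO1, so that every SAP30-KO1 library was lower and SAP30-KO1 1 was far below the others. The difference was -28.0 points (two-sided exact permutation p = 0.1, adjusted p = 0.988 over all sites), with a standard error of 12.3 and an adjusted p of 0.557 by limma. Without SAP30-KO1 1, in which the site was split into 2 summits with ranks of 34.6 and 19.8, the difference was -14.4 points and the groups still did not overlap. Its neighbors on the chromosome were lower in the median as well. Over 44 other sites within 5 Mb seen in all libraries the median difference was -4.43 points. Of these 44, 8 were lower without overlap, a larger share than the 7.08% of all 16314 sites seen in every library. Over 187 sites on arm 16q the median was -3.70 points. With ranks taken within the arm the difference at this site was -23.5 points, still without overlap. The CDH3 promoter had no summit in any library. The strongest of the intronic CDH1 sites, 52.9 kb downstream of the start, had ranks of 49.98, 30.1 and 0 in Parental and 12.6, 7.49 and 0 in SAP30-KO1, and these overlapped.

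**Figure D3:**
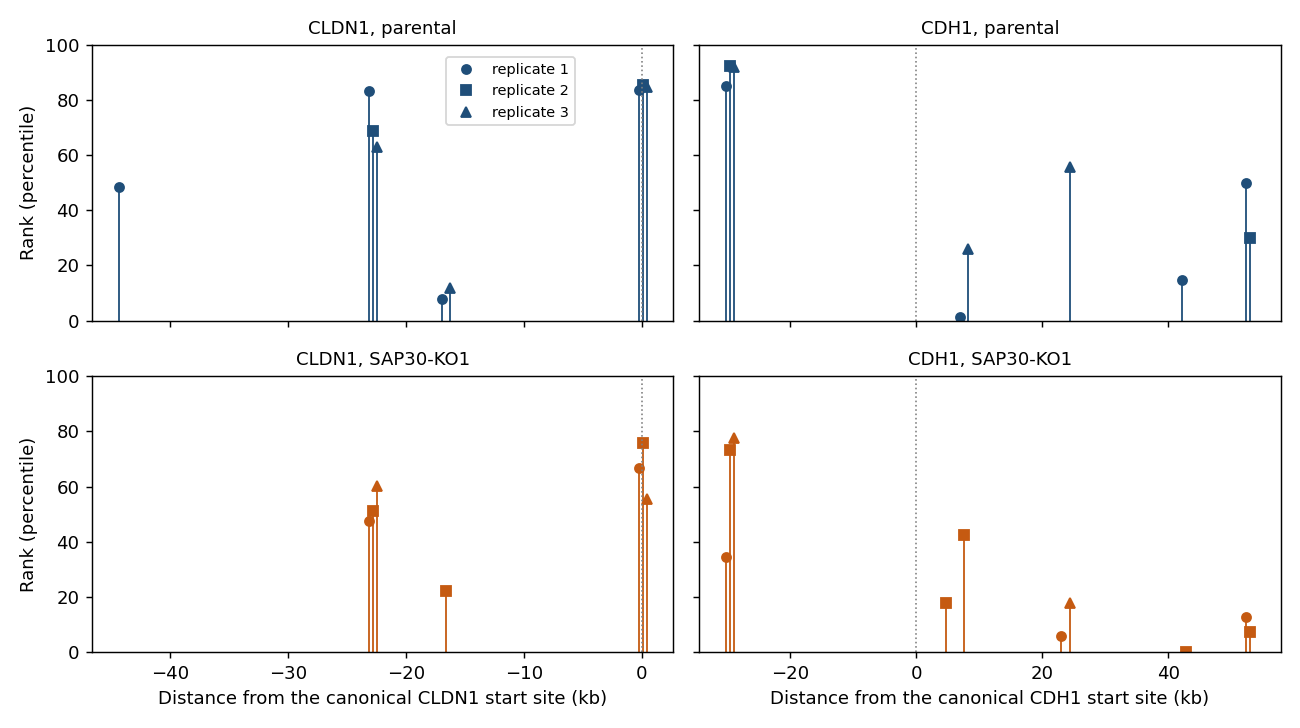
Summits in the CLDN1 and CDH1 regions by distance from the canonical start site in kb (x axis) and percentile rank (y axis) of the best summit per site in the 3 Parental (upper panels) and 3 SAP30-KO1 (lower panels) libraries, drawn side by side with a small shift. At CLDN1 summits of all libraries stack at the start and 22.8 kb upstream, and at CDH1 they stack 29.5 kb upstream with nothing at the start.

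The other sites seen in every library overlapped between the groups. The CLDN4 site 8.3 kb upstream of the canonical start, in an intron of the longer CLDN4 transcripts (chr7:73236656-73237361), had ranks of 55.2, 77.6 and 74.9 in Parental and 85.1, 57.3 and 91.0 in SAP30-KO1. The lowest value was from a Parental library and the highest from a SAP30-KO1 library, with a difference of 8.59 points (two-sided exact permutation p = 0.5). In the TJP1 region, a site 102.5 kb upstream of the canonical start and still inside the gene had ranks of 58.9, 57.1 and 47.8 in Parental and 18.5, 56.6 and 9.16 in SAP30-KO1 (difference -26.5 points, two-sided exact permutation p = 0.2). SAP30-KO1 2 lay among the Parental values there, and the other two SAP30-KO1 libraries lay below them. The remaining 2 were promoters of other genes, the EIF5A promoter 44.6 kb upstream of CLDN7 and the shared promoter of AK6, RAD17 and TAF9 45.5 kb upstream of MARVELD2. The second of these had ranks of 79.4, 45.9 and 74.4 in Parental and 34.1, 54.4 and 32.4 in SAP30-KO1 (difference -26.3 points, two-sided exact permutation p = 0.2).

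TJP1, the longest of the genes, held 13 sites, 10 of them intronic and 3 at its start sites. Of the 5 sites seen in 5 libraries, 3 were at TJP1 and 2 at EPCAM. The TJP1 site 21.5 kb upstream of the canonical start had ranks of 40.8, 80.3 and 30.4 in Parental and 46.1, 42.4 and 0 in SAP30-KO1. The EPCAM sites 14.7 kb and 8.1 kb upstream lay in introns of the longer transcripts, and each was missing in Parental 1 and present in all 3 SAP30-KO1 libraries. At the nearer of them the ranks were 0, 55.3 and 26.4 in Parental and 16.5, 49.6 and 22.2 in SAP30-KO1. Per 100 kb of region the number of sites ran from 0 at CLDN3 to 9.24 at CLDN7, with 4.07 at TJP1, 4.05 at CDH1, 5.41 at EPCAM and 5.997 at CLDN1. At OCLN and F11R no site was seen in more than 4 libraries.

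The number of summits in the 10 regions did not separate the groups. It was 26, 25 and 24 in Parental and 21, 33 and 21 in SAP30-KO1, with a mean of 25 in each group (SD 1 and 6.93, n = 3). SAP30-KO1 2 was highest, and per 10000 summits of its list it had 8.12, beside 8.20 in Parental 2 and 6.13 in SAP30-KO1 3, the highest and lowest of the 6. Promoter summits numbered 3, 6 and 7 in Parental and 4, 5 and 4 in SAP30-KO1, and distal summits 23, 19 and 17 against 17, 28 and 17. No gene had numbers that separated the groups, which was the case for 1.55% of 17677 genes lower in SAP30-KO1 and 2.23% higher (exact permutation test per gene, two-sided, p from 0.7 to 1, adjusted p = 1). At CLDN1 the numbers were 4, 2 and 3 against 2, 3 and 2, and at CDH1 4, 2 and 3 against 4, 5 and 2.

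Other genes of epithelial junctions and their regulators, 84 in 7 lists, were examined in the same way. Of these, 50 had a promoter summit in at least 1 library, 20 in all 6, and 34 in none, where the shares over all protein-coding genes were 62.3% in at least 1 library and 34.5% in all 6. The ranks of 1 of the 50 were lower without overlap, CLDN16, through the peak that it shares with CLDN1, and 0 were higher, beside 4.57% lower and 6.01% higher over all promoters with a summit. Over the other 49 the groups overlapped at every gene. The mean was lower in SAP30-KO1 at 27 and higher at 23 of the 50, and the median difference was -2.83 points against 0.673 over all promoters with a summit.

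Among the 19 other claudins, 14 had no promoter summit. CLDN12, a claudin found in many tissues, had means of 81.5 ± 9.47 in Parental and 90.2 ± 3.82 in SAP30-KO1, and CLDN2, a channel-forming claudin, had 80.6 ± 7.06 and 87.1 ± 10.5 (SD, n = 3 each). In Parental both means were close to that of CLDN1, and in SAP30-KO1 both were above it. CLDN23, the remaining one with a summit in all libraries apart from CLDN16, had ranks of 80.7, 34.6 and 87.1 in Parental and 26.4, 74.1 and 16.9 in SAP30-KO1, a difference of -28.3 points with overlapping groups. Of 21 tight junction and polarity genes, 14 had a summit and 5 had one in all libraries. MAGI1, a junctional scaffold and one of these, had means of 78.0 ± 8.06 and 90.0 ± 4.25, and CRB3, LSR, JAM2 and JAM3 had no promoter summit.

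Of 10 adherens junction genes, 3 had a promoter summit in all libraries. CTNNB1, β-catenin, had means of 67.4 ± 15.5 and 68.6 ± 18.6 (SD, n = 3 each). NECTIN1, a nectin of the adherens junction, had the largest difference in means of these lists, -40.0 points, from ranks of 93.0, 32.6 and 75.9 in Parental and 15.0, 2.97 and 63.4 in SAP30-KO1 that overlapped. CDH2 (N-cadherin) and CDH3 had none. Of 10 desmosome genes, 3 had a summit in all libraries, and DSP, the desmosomal plaque protein desmoplakin, ranged from 2.73 to 81.9 with both ends in SAP30-KO1. Of 7 epithelial surface genes, 1 had a summit in all libraries, SPINT2.

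Of 12 transcription and splicing regulators of epithelial genes, 10 had a promoter summit in at least 1 library and 4 in all 6. Over all protein-coding genes these shares were 62.3% and 34.5%. GRHL3 and EHF had a summit in 1 library each, and GRHL2, OVOL2, ESRP1 and TP63 in 2 each. KLF5, a factor of basal and gut epithelium, had means of 95.2 ± 1.70 and 92.0 ± 7.76 (SD, n = 3 each), and GRHL1 had 67.0 ± 19.3 and 73.0 ± 8.71. GRHL2, an activator of CLDN4 and CDH1 in epithelia, had a promoter summit in SAP30-KO1 2 at a rank of 66.8 and in SAP30-KO1 3 at 2.54 and in no Parental library. Of the 5 repressors of epithelial genes, TWIST1 had no promoter summit and none had one in all libraries. ZEB1 had ranks of 0, 36.6 and 0 in Parental and 0, 28.8 and 13.6 in SAP30-KO1, and SNAI2 had 28.8, 0 and 34.1 against 14.0, 77.5 and 0. SNAI1 had 16.7, 0 and 27.6 in Parental and no summit in SAP30-KO1, and ZEB2 had a summit in Parental 3 at a rank of 18.8 and in SAP30-KO1 3 at 2.43. The means of these 4 were thus lower in SAP30-KO1 at 2 and higher at 2, and all of them overlapped.

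**Figure D4:**
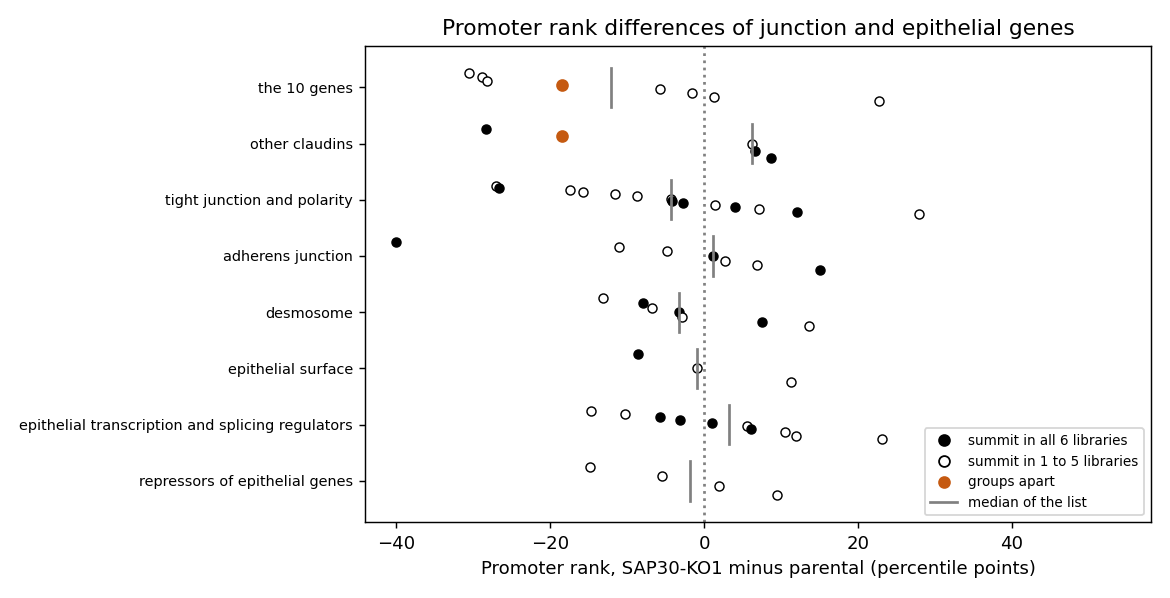
Difference in mean promoter rank, SAP30-KO1 minus Parental (percentile points), for the 10 junction genes and for the genes of each further junction list that had a promoter summit in any library. Points are genes, filled where all 6 libraries had a summit and open where 1 to 5 had, and gray bars are list medians. The points in orange, CLDN1 and CLDN16, are those whose groups do not overlap, and they share a peak. Each list has genes on both sides of 0.

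The genes whose 6 promoter ranks lay closest to those of CLDN1, by Euclidean distance over all protein-coding genes, were CLDN16 at a distance of 0, TFE3 on Xp at 9.76 and BMS1 on 10q at 10.4. TFE3 had ranks of 87.2, 89.6 and 82.0 in Parental and 61.2, 79.4 and 59.2 in SAP30-KO1. As at CLDN1, the groups did not overlap and SAP30-KO1 2 was the highest of the knockout libraries, which the choice by likeness to CLDN1 largely fixes.

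The libraries as a whole did not stand apart by list length, since the shortest and the longest list were both from SAP30-KO1. Of the mesenchymal markers checked for the cell line, VIM, CD44 and CAV1 had a promoter summit in all 6 libraries and AXL in 3. Of the luminal markers, ESR1 and PGR had a summit in 1 library each, FOXA1 in 2 and GATA3 in 5, and the blood and vessel markers PTPRC, CD3E and CDH5 had none. The SAP30 promoter was open in all libraries, at ranks of 64.8 to 84.7 in Parental and 49.5 to 89.5 in SAP30-KO1, and peak lists do not show whether the gene was disrupted. No 2 lists shared more than 0.598% of their exact summit positions.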

How the data were processed

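ATAC-seq libraries of Parental (3) and SAP30-KO1 (3) MDA-MB-231 cells were grouped and numbered from the sample labels. Single-end reads were trimmed with Trim Galore 0.4.5, aligned to hg19 with Bowtie2 2.3.3.1 and cleared of duplicates with Picard by the authors, who then called peaks with MACS2 2.1.0 (q value up to 0.05); versions are from the submitters' processing notes. Summit lists are separate for each library, so replicates were taken not to be pooled. Correction for the transposase offset and removal of blacklisted regions are not given in the sources used here. The deposited score is the -log10 of the q value, read from the values, whose minimum per list was 1.31 to 1.33. The lists hold neither read counts nor peak widths, so depth is unknown and no counting interval was computed.

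Scores were ranked within a list because separately called lists share no scale. Start sites, exons and the canonical transcript came from GENCODE 44 mapped to GRCh37, and every summit position fitted the GRCh37 chromosome lengths. For group means a two-sided exact permutation test over 20 assignments was used, with Benjamini-Hochberg adjustment over all promoters with a summit or all sites. Counts of features whose ranks did not overlap between groups were set beside the same share over all features. limma 3.58.1 on features with a summit in all libraries was an alternative, as were stricter q values (0.01, 0.0001), equal list lengths, promoter windows of 500 bp and 2.5 kb, ranks within chromosome arms, summits extended by 100 bp, regions from 10 kb upstream, summit numbers per 10000, a replicate block, and leaving out the libraries in turn. Deviations are SD. Sites named were those with ranks apart, all at CLDN1 and the 5 with the highest mean rank, and others shown for a gene were chosen after their values were seen. Genes named in the further lists were those with ranks apart, and the rest were chosen after their values were seen. Sequences were read from GRCh37. The genes, the lists and the tests were chosen with earlier results of these data known. The permutation test and the counts were tested on simulated ranks before use. Analyses used Python 3.11.15, numpy 2.4.6, pandas 2.3.3, scipy 1.17.1 and pysam 0.24.0. PECAM1 had no protein-coding entry under that name and was left out. Other cell lines and assays were not analysed here. Some items are not reported here.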

Additional observations from a re-analysis of the deposited data

How the results depend on the processing

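The difference at the CLDN1 promoter kept its direction under every alternative, from -23.4 to -13.2 points with each library left out and from -21.6 to -18.5 under the other settings, and the groups at the CLDN1 promoter and the site upstream of CDH1 stayed apart under all 5 changes of ranking, threshold or merging, while those at the site upstream of CLDN1 did under 4. With the replicate block, an exact sign-flip test over the 3 same-numbered pairs, the difference at CLDN1 was -18.5 points with p = 0.25, the smallest this test allows. Same-numbered libraries did not deviate together (correlations of -0.0179, -0.0127 and -0.00320), so the numbers were not taken as pairs. The differences of OCLN (-8.80 to 0.585, the last without Parental 3) and TJP1 (-2.41 to 36.0, the first without SAP30-KO1 2) turned sign. The counts below, under changed settings, stand without the share over all features at the same setting. They cannot be set beside the background shares given above, and smaller groups fail to overlap more easily. Without 1 library in turn, promoters lower without overlap numbered 1 to 3 (3 without Parental 1, 2 without SAP30-KO1 2) and higher 0 to 0. Sites lower numbered 3 to 8 (8 without Parental 3, 7 without SAP30-KO1 2, 6 without Parental 1), sites higher 0 to 2, sites in Parental only 0 to 2, and sites in SAP30-KO1 only 0 to 2. Genes of the further lists numbered 1 to 6 lower (6 without Parental 2) and 0 to 5 higher (5 without SAP30-KO1 1), and the difference in mean summit number ran from -4 to 2. Sites lower were 1 from 10 kb upstream, which leaves out both upstream sites, and 5 with equal list lengths. Sites in Parental only were 1 with summits extended by 100 bp. Genes of the further lists were 1 higher with a promoter window of 2.5 kb and 2 lower with equal list lengths, and the cause was not tested. With canonical start sites only 0 were lower, since CLDN16 no longer had ranks apart. limma called 0 of 6966 promoters (519 at an unadjusted p under 0.05, lowest adjusted p 0.276) and 0 of 16314 sites (1597, lowest adjusted p 0.161). Canonical start sites only, and limma on sites, were chosen after seeing the data. CLDN4 had no value with canonical start sites only, CLDN7, F11R and OCLN none at a q value of 0.0001, and F11R none with equal list lengths.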
